A study of Gasterosteus aculeatus with 9 samples.

Results

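The gills of 6 wild threespine sticklebacks (Gasterosteus aculeatus) were compared, out of 9 fish sequenced at 3 stations. Of the 6, 3 came from the mid-salinity station A in the main channel of the urban river Boye. The other 3 came from the reference station B in another stream close by. The fish of a station were caught in the field, and the labels call each library a biological replicate. Each library is taken here as 1 fish with its own history, which the sources used here do not state outright. The labels give 26.378 mg/L of chloride for station A and 12.912 mg/L for station B, with no other treatment, and age is not given in the sources used here. Whatever else differs between the stations cannot be told apart from chloride. A column of the deposited table belonged to the comparison when its label named station A or B. Fish are written A1 to A3 and B1 to B3, with the replicate numbers of the labels, which are not said to mark pairs between the stations.

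The gill of a freshwater fish takes up sodium, chloride and calcium against a gradient through ionocytes, which are cells rich in mitochondria that carry the sodium-potassium ATPase, proton pumps and exchangers, and it loses ammonia through Rh glycoproteins. Tight junctions between the covering epithelial cells set how much salt leaks out, and pillar cells and mucous cells shape and protect the lamellae. The same surface meets microbes and parasites first, so it also holds lymphocytes, granulocytes, antimicrobial peptides and sensory nerve endings.

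The data are estimated counts of de novo assembled transcripts. Counts of all transcripts whose first match in the Swiss-Prot protein database had the same entry name were added, and such a sum is called a gene below. An entry name is a short protein code, for instance CO6A6 for a collagen VI chain, and the matched protein often comes from another species. Of 98643 transcripts, 43772 (44.4%) carried an entry name, which gave 10495 names, and the sums held between 85.2% and 87.2% of the counts of the 6 fish. Total counts per fish lay between 22049066 (A1) and 38806347 (B1). Levels are CPM, these sums scaled to a common library size after TMM normalization (edgeR's correction for composition), and since gene lengths were not used they compare fish within a gene and not genes with each other. A gene was at the floor in a fish with at most 3 counts, which is 0.0891 to 0.164 CPM and covers counting error only.

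Fish A3 stood apart from the other 5 fish. Spearman correlations of the levels over 9052 genes were 0.9705 to 0.9751 among the fish of station B and 0.9755 between A1 and A2, but 0.9564 and 0.9468 between A3 and these fish. Between A3 and B1, B2 and B3 they were 0.9473, 0.9593 and 0.9652, against 0.9669 to 0.9707 in the other pairs between stations. In A3, 13% of the genes lay more than 2-fold from the mean of the other fish of its station, against 4.43% to 8.87% in the other fish. Marker lists of cell types were summed for each fish, and the gill origin of the tissue is that given by the labels. The ionocyte list had 7 measured members, among them AT1A1 (the sodium-potassium ATPase alpha subunit), S12A3 (a sodium-chloride cotransporter) and SL9A3 (a sodium-proton exchanger). The summed ionocyte level was 10186, 12524 and 6869 CPM in B1, B2 and B3 and 13500.0, 11549 and 2626 CPM in A1, A2 and A3. It was thus lowest in A3. The neuron list reached 24.2, 18.6 and 18.7 CPM in B1, B2 and B3 and 86.1, 17.2 and 72.2 CPM in A1, A2 and A3, high in A1 and A3 and at the level of station B in A2. The skeletal muscle list varied most within station B, with 1655, 4883 and 9922 CPM in B1, B2 and B3 and 5786, 13576 and 8926 CPM in A1, A2 and A3. Liver markers summed to between 5.53 and 15.2 CPM, and only 3 of the 9 measured were expressed highly enough to be tested. In bulk tissue fewer cells of a type and less RNA per cell cannot be told apart.

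**Figure D1:**
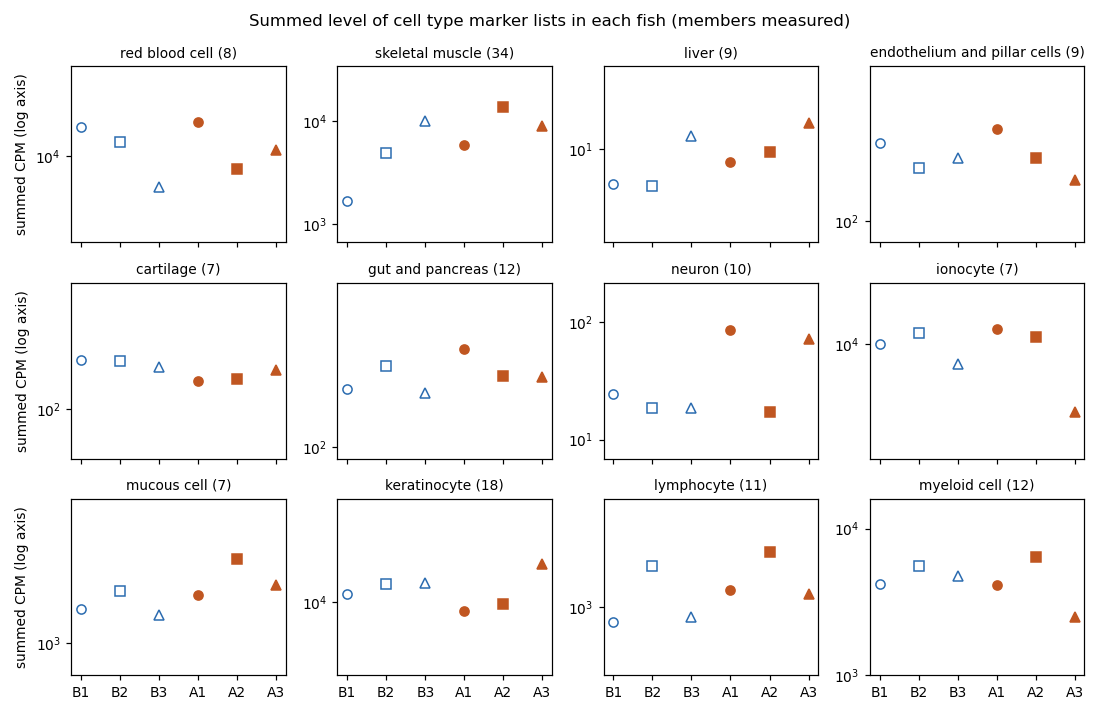
Summed CPM (log axis) of the measured members of 12 cell type marker lists in fish B1 to B3 (open) and A1 to A3 (filled), 1 point for each fish. The ionocyte sum is lowest in A3 at 2626 CPM, and the neuron sum is high in A1 and A3 only.

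No gene passed the main test between the stations. Those with the smallest p included an immunoglobulin, a collagen and a gliomedin higher at station A, and a caspase, a granulin and an antimicrobial peptide lower there, and none of the 30 leading genes belonged to the lists of ion transporters described further on. The main test, edgeR's quasi-likelihood test on the 6 fish, called 0 of 9052 genes (0%). A call needed an adjusted p (Benjamini-Hochberg, over all genes tested) of 0.05 or less together with a difference of more than 2-fold, and the smallest adjusted p was 0.309. At an unadjusted p under 0.05 there were 546 genes (6.03%), 316 higher (3.49%) and 230 lower (2.54%) at station A, a split that became 253 higher and 275 lower when libraries were scaled by their totals alone. The Wald test of DESeq2, the tool of the study, had an adjusted p of at most 0.05 for 55 of 8854 genes (0.621%), 36 higher and 19 lower at station A, of which 36 (0.407%) also passed the fold change limit. The 3 fish of one station all lay above the 3 fish of the other in 1066 genes (11.8%), among them 50 of the 55, and in 569 (6.29%) it was station A that was lower. The log2 fold change was negative in 4418 genes (48.8%). The quartiles of all log2 fold changes were -0.157 and 0.205, with a median of 0.0072.

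The calls depended on single fish. Without A3, DESeq2 gave an adjusted p of at most 0.05 for 409 genes, 45 of the 55 among them, and 120 genes passed both limits. Without any one of the other fish the same limits were passed by 27 genes (without B1) to 131 genes (without A2), and by 108 without B2 and 61 without B3. The quasi-likelihood test called 0 genes without A3 and 2 genes (CTL2B, a choline transporter-like protein, and IAAA, a bacterial match) without B2. Adjusted p-values are named by tool below, and no gene is past the threshold of the main test.

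**Figure D2:**
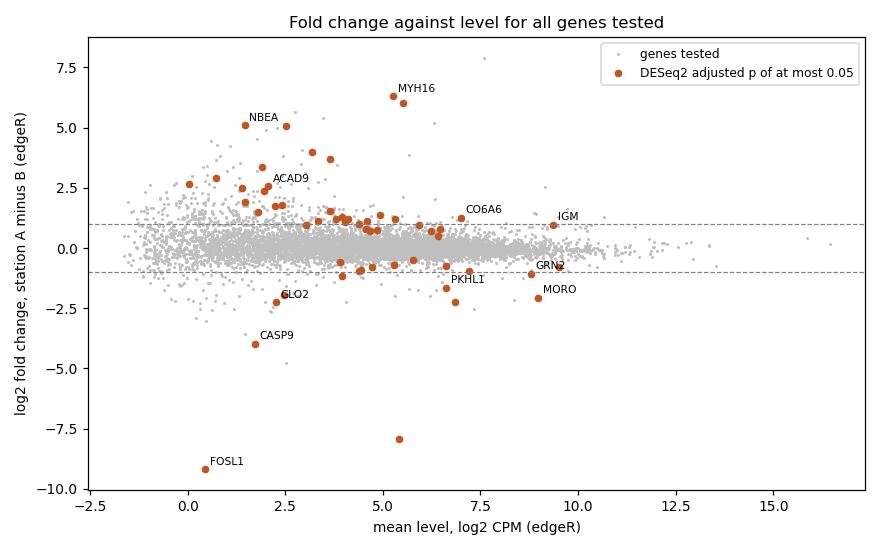
Log2 fold change (station A minus B, edgeR) against the mean level (log2 CPM) of the 9052 genes tested, with dashed lines at a fold change of 2 in either direction. The 55 genes with a DESeq2 adjusted p of at most 0.05 are coloured, and most points lie between the dashed lines.

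The 15 genes with the smallest p in each direction whose fish did not overlap are described first, and their choice by p makes them a description rather than support for a station effect. All 30 genes had a DESeq2 adjusted p of at most 0.05. They kept their direction in each alternative fit that tested them. For the fits without 1 fish this largely followed from the choice of genes without overlap, so it supports nothing.

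Among the genes higher at station A was IGM, the match to the heavy chain of immunoglobulin M, which B cells carry and plasma cells secrete. Its levels were 420.2, 469.9 and 449 CPM at station B and 818, 973 and 840.2 CPM at station A. The stations were thus about 2-fold apart, with a tight spread in each and A3 close to the other fish. The log2 fold change was 0.97 ± 0.14 (SE), with an unadjusted p of 0.000267, an adjusted p of 0.482 by edgeR and 9.27e-10 by DESeq2. Its transcripts shared an assembled gene with matches to IGHE (immunoglobulin E) and VTCN1, and the whole assembled gene had a log2 ratio of 0.91. In the lymphocyte marker list, BLNK, an adaptor of the B cell receptor, was the other member with an unadjusted p under 0.05 (log2 fold change 0.75 ± 0.22 (SE), adjusted p by edgeR 0.781), and its levels were 41.4, 44.5 and 57 CPM at station B and 67.3, 104 and 70.2 CPM at station A. Of the 11 lymphocyte markers tested, 10 had a positive and 1 a negative log2 fold change, beside 48.8% negative among all genes. The list median was 0.37, and between 0.27 and 0.54 without 1 fish of station A. By fish, the median log2 ratio to station B was 0.50 in A1, 0.78 in A2 and -0.045 in A3. The summed list was 763, 2022 and 842 CPM in B1, B2 and B3 and 1346, 2593 and 1247 CPM in A1, A2 and A3, which overlapped.

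Matrix genes followed. CO6A6, a collagen VI chain of the pericellular network, was at 77.2, 65.9 and 82.7 CPM at station B and 172, 143 and 225 CPM at station A. Every fish of station A was above every fish of station B, with the highest level in A3 (log2 fold change 1.26 ± 0.19 (SE), adjusted p 0.482 by edgeR and 1.84e-05 by DESeq2). COFA1, the chain of collagen XV at basement membranes of muscle, vessels and nerves, was at 19.3, 22.6 and 21.9 CPM at station B and 38, 30 and 39.7 CPM at station A (log2 fold change 0.75 ± 0.16 (SE), DESeq2 adjusted p 0.0259). Of the 47 collagens and matrix genes tested, 2 were higher and 1 lower at an unadjusted p under 0.05, beside 3.49% and 2.54% of all genes. The third was COQA1, collagen XXVI, with a log2 fold change of -0.92 ± 0.28 (SE). The list median was 0.18 and 0.032 without A3, beside 0.0072 for all genes.

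A group of genes known from nerve and synapse was also higher. GLDN, gliomedin, which gathers sodium channels at the nodes of myelinated axons, was at 18, 30.1 and 24.5 CPM at station B and 52, 46.6 and 67.8 CPM at station A. DPYL5, a collapsin response mediator of growing axons, was at 1.78, 2.09 and 3.19 CPM at station B and 5.96, 8.14 and 10.2 CPM at station A. Its sum joined 3 assembled genes. The main one, with 74.1% of the counts, was highest in A2, at 3.61, 7.84 and 5.69 CPM in A1, A2 and A3. CTTB2, a cortactin-binding protein of dendritic spines, was at 6.22, 6.19 and 6.87 CPM at station B and 16.5, 12.5 and 26.6 CPM at station A. None of these sums overlapped between the stations, and A3 held the highest level of all of them. Their log2 fold changes were 1.20 ± 0.24 (SE), 1.78 ± 0.36 (SE) and 1.52 ± 0.31 (SE), with DESeq2 adjusted p-values of 0.00462, 0.00248 and 0.00371. KCJ11, the pore of the ATP-sensitive potassium channel, was at low levels of 0.121, 0.403 and 0.281 CPM at station B and 2.13, 1.25 and 1.75 CPM at station A. The neuron marker list moved with these genes in A1 and A3 but not in A2, with a median log2 ratio to the mean of station B of 1.93 in A1, -0.24 in A2 and 2.78 in A3, and its part in them was not tested. Of its 9 tested members 4 were higher at an unadjusted p under 0.05, beside 3.49% of all genes. These were NEUM, NFM, SYN2 and NFL, and their groups overlapped because A2 was low.

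Genes of vesicle traffic and membranes made up a further group. RAB6B, a small GTPase of Golgi transport found mainly in neurons of mammals, was at 41.8, 38.8 and 44.1 CPM at station B and 87.2, 70.3 and 84.2 CPM at station A. Its sum joined 2 assembled genes, with 93.3% of the counts in the main one. A transcript of the other was at 0.272, 0.476 and 1.31 CPM at station B and 11.1, 0.0891 and 15.1 CPM at station A. EXOC4, a subunit of the exocyst, which tethers secretory vesicles, was at 74.1, 54.2 and 66 CPM at station B and 115, 119 and 104 CPM at station A. PKHA5, a pleckstrin homology domain protein that binds phosphoinositides, was at 58.7, 55.3 and 55.6 CPM at station B and 86.8, 92.2 and 101 CPM at station A. The fish of the stations were well apart in each, by less than 2-fold, with log2 fold changes of 0.96 ± 0.13 (SE), 0.80 ± 0.14 (SE) and 0.72 ± 0.11 (SE) and DESeq2 adjusted p-values of 2.71e-06, 0.00199 and 1.01e-05. ENTP3, an enzyme that breaks down extracellular ATP, differed least of the 15, at 68.5, 65.4 and 76 CPM at station B and 102, 96.2 and 100.2 CPM at station A.

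The remaining genes of the upper 15 were ACAD9, 2ABG, SOGA3 and MYPC3. ACAD9, an acyl-CoA dehydrogenase that helps to assemble respiratory complex I, had the largest log2 fold change after KCJ11, with 0.906, 1.21 and 1.47 CPM at station B and 5.69, 6.66 and 8.79 CPM at station A. It rested on 1 transcript, which was the only one of its assembled gene, and the log2 fold change was 2.56 ± 0.35 (SE) (adjusted p 0.479 by edgeR, 3.34e-08 by DESeq2). 2ABG, a regulatory subunit of protein phosphatase 2A, was at 0.846, 1.21 and 1.34 CPM at station B and 4.32, 3.83 and 4.67 CPM at station A. SOGA3 was at 0.725, 0.403 and 1.19 CPM at station B and 2.95, 5.82 and 4.38 CPM at station A, with the highest fish A2. MYPC3, the match to cardiac myosin-binding protein C of the thick filament, was at 9.36, 9.52 and 12.5 CPM at station B and 22.4, 20.7 and 28.8 CPM at station A. The skeletal muscle list, with sums as above, had a median of 0.60 over 32 members. Only 2 were higher at an unadjusted p under 0.05, beside 3.49% of all genes, namely TNNI1 (slow troponin I) and MYH16 (a jaw muscle myosin). MYH16 was at 0.211, 1.1 and 1.56 CPM at station B and 2.02, 204 and 21.2 CPM at station A, so that 1 fish, A2, set its mean.

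**Figure D3:**
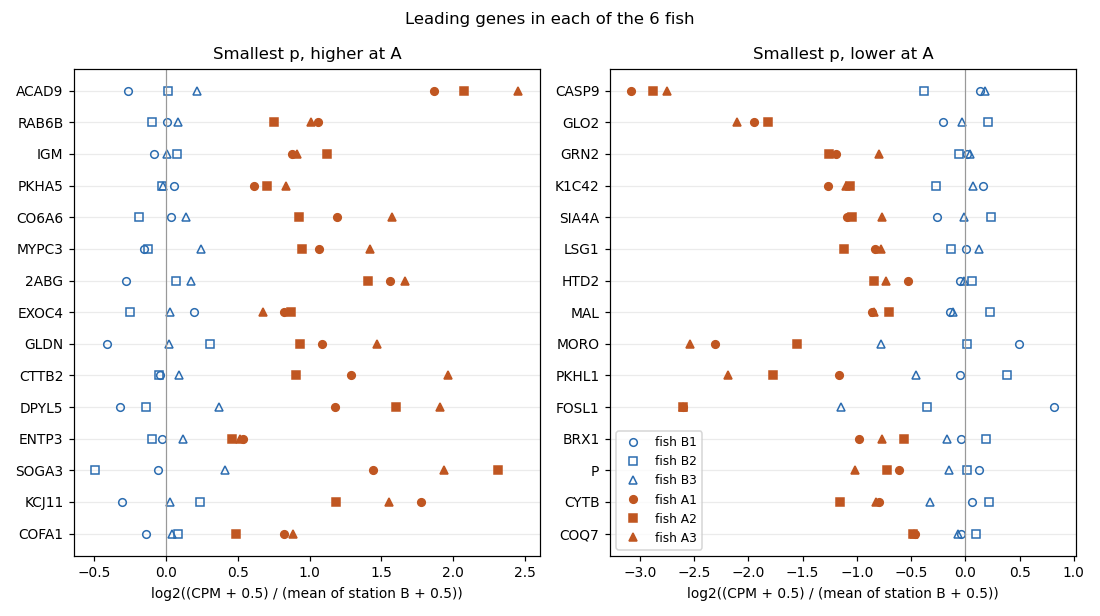
Level of the 15 genes with the smallest p in each direction without overlap, as log2((CPM + 0.5) / (mean of station B + 0.5)), 1 point for each fish (open for B1 to B3, filled for A1 to A3). The fish of station A lie on one side of the fish of station B in all 30 genes, by construction of the choice.

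Lower at station A were first of all a caspase and a detoxification enzyme at low levels. CASP9, the initiator caspase of the mitochondrial path of apoptosis, was at 6.67, 4.5 and 6.94 CPM at station B and 0.273, 0.386 and 0.474 CPM at station A. All fish of station A were close to the floor and far under every fish of station B. The log2 fold change was -3.97 ± 0.40 (SE), with the smallest unadjusted p of all genes (3.41e-05), an adjusted p of 0.309 by edgeR and 1.45e-13 by DESeq2. Its single transcript belonged to an assembled gene that also held a transcript matched to DJC16, a heat shock cochaperone. This assembled gene as a whole had a log2 ratio of -3.005, with 0.5 CPM added, which draws ratios at low levels toward 0. GLO2, the glyoxalase that ends the detoxification of methylglyoxal, was at 6.67, 9.08 and 7.59 CPM at station B and 1.64, 1.84 and 1.42 CPM at station A (log2 fold change -2.25 ± 0.28 (SE), adjusted p 0.479 by edgeR and 3.31e-09 by DESeq2). The assembled gene that holds GLO2 also carries matches to FAHD1, and its total did not follow, with a log2 ratio of 0.015.

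A pair of genes for defence peptides, MORO and GRN2, was lower at much higher levels. MORO, the match to moronecidin, an antimicrobial peptide of the piscidin family that mast cells and other granulocytes of bony fish store, was at 1145, 826 and 474 CPM at station B and 164, 278 and 140.1 CPM at station A. The lowest fish of station B was above the highest of station A, and the spread within station B was wide (log2 fold change -2.07 ± 0.40 (SE), adjusted p 0.781 by edgeR and 6.17e-05 by DESeq2). GRN2, the match to a carp granulin, a small cysteine-rich growth and defence peptide, was at 606, 576 and 618 CPM at station B and 262, 251 and 345 CPM at station A. Both stations were tight, and the log2 fold change was -1.07 ± 0.16 (SE) (adjusted p 0.482 by edgeR, 1.66e-06 by DESeq2). Antimicrobial peptides and lysozymes, a list put together after its values were seen, had 4 higher and 4 lower among 8 tested and a median of -0.049. The myeloid cell list, whose 12 tested members include granulocyte and macrophage genes, had 0 members at an unadjusted p under 0.05 in either direction, a median of 0.24 and sums of 4183, 5526 and 4739 CPM in B1, B2 and B3 and 4112, 6358 and 2486 CPM in A1, A2 and A3.

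Epithelial and membrane genes formed the next group. MAL, a proteolipid that sorts proteins to the apical membrane of epithelia, was at 842, 1082 and 857 CPM at station B and 509.7, 569.8 and 517 CPM at station A. PKHL1, a large receptor-like relative of fibrocystin, was at 144, 195 and 109 CPM at station B and 66.5, 43.5 and 32.5 CPM at station A. K1C42, a type I keratin, was at 24.2, 17.7 and 22.7 CPM at station B and 8.64, 10.1 and 9.81 CPM at station A. SIA4A, a sialyltransferase that caps O-linked sugar chains, was at 163, 230.5 and 194 CPM at station B and 91.3, 94.3 and 115 CPM at station A. The groups did not overlap in any of these genes, with log2 fold changes of -0.80 ± 0.16 (SE), -1.66 ± 0.32 (SE), -1.18 ± 0.18 (SE) and -0.97 ± 0.17 (SE) and DESeq2 adjusted p-values of 0.000403, 0.000691, 3.87e-05 and 0.000864. The assembled gene of K1C42 also held matches to K1C13 and moved alike (log2 ratio -1.18). Of the 18 keratinocyte markers tested, 3 were lower at an unadjusted p under 0.05 and 0 higher, beside 2.54% and 3.49% of all genes, namely K1C42, K1C20 (log2 fold change -0.85 ± 0.22 (SE)) and EVPL, envoplakin of the cornified envelope (log2 fold change -0.50 ± 0.16 (SE)), all without overlap. The list median was -0.25, or -0.54 without A3 and -0.064 without A1, while the summed level was highest in A3 (17334 CPM) and lower in A1 and A2 than in every fish of station B.

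Further genes of the lower 15 came from ribosome assembly and mitochondria. LSG1, a GTPase that releases an export adaptor from the large ribosomal subunit, was at 28.4, 25.8 and 31 CPM at station B and 15.7, 12.8 and 16.4 CPM at station A. BRX1, a factor of large subunit assembly in the nucleolus, was at 120.0, 141 and 109 CPM at station B and 62.2, 83.3 and 72.4 CPM at station A. Both lay lower in every fish of station A, with log2 fold changes of -0.92 ± 0.16 (SE) and -0.76 ± 0.16 (SE). HTD2, a dehydratase of mitochondrial fatty acid synthesis, was at 46.7, 50.4 and 48.1 CPM at station B and 33.5, 26.9 and 29 CPM at station A. COQ7, a hydroxylase of ubiquinone synthesis, was at 62.3, 68.8 and 61.2 CPM at station B and 46.3, 45.6 and 46.1 CPM at station A. The differences of both were small but exceeded the spread within stations (log2 fold changes -0.70 ± 0.13 (SE) and -0.48 ± 0.11 (SE), DESeq2 adjusted p 0.00371 and 0.0259). CYTB, cystatin B, an inhibitor of cathepsins, was at 28.5, 31.8 and 21.7 CPM at station B and 15.5, 12 and 15.2 CPM at station A, and P, a melanosome membrane protein, was at 36.2, 33.3 and 29.7 CPM at station B and 21.5, 19.9 and 16.1 CPM at station A.

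FOSL1, a transcription factor of the AP-1 family, was found in the fish of station B only, with 4.86, 1.87 and 0.875 CPM at station B and 0, 0 and 0 CPM at station A. Since all fish of station A were at the floor, the difference is at least 21-fold (against 3 counts in each library of station A), and no fitted fold change is given. The assembled gene of FOSL1 also held a transcript matched to its relative FOSL2, and the total of both had a log2 ratio of 0.092, so the sum for the assembled gene did not differ in the same way. Over the 30 genes, the log2 ratio of the whole assembled gene had the direction of the gene in 28, and it had the other sign in GLO2 and FOSL1. In 2ABG and KCJ11 it was 0.89 and 1.12, beside 1.91 and 2.66 for the gene itself. The assembled ratio has 0.5 CPM added, which draws it toward 0 at low levels, and the gene's log2 fold change has not. In ACAD9, where both rest on the same transcript, they were 2.155 and 2.56. The part of this addition in 2ABG, KCJ11 and SOGA3 was not tested. The assembled total of KCJ11 did not overlap, at 0.0906, 0.366 and 0.125 CPM at station B and 0.82, 1.04 and 1.17 CPM at station A. The assembled ratio was also smaller in other genes, among them RAB6B (0.578), SOGA3 (1.33), CYTB (-0.561) and BRX1 (-0.536). The assembled totals of 2ABG and CYTB overlapped between the stations. That of 2ABG was 0.8457, 1.172 and 1.124 CPM at station B and 2.242, 3.831 and 1.021 CPM at station A. That of CYTB was 287, 293.8 and 173.5 CPM at station B and 205.7, 212.7 and 92.63 CPM at station A.

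Ion transport, the function behind the sampling of a salinity gradient, showed no gene past the threshold. The 14 lists of transporters, junctions, osmolytes, their receptors and regulators held 152 tested genes in all, counting a gene once for each list. At an unadjusted p under 0.05 there were 3 higher and 2 lower, beside 3.49% and 2.54% of all genes. AT1A1 was at 3790.2, 3241 and 2436 CPM at station B and 6502, 4409 and 1255 CPM at station A. S12A3 was at 2669.8, 2855 and 2288 CPM at station B and 2296, 2610.0 and 422 CPM at station A. A1 and A2 were above the levels of station B in AT1A1, A3 was the lowest fish in both, and the log2 fold changes of 0.36 ± 0.55 (SE) and -0.55 ± 0.60 (SE) had standard errors larger than the difference. RHCG, an apical ammonia channel, was at 1405, 2845 and 1233 CPM at station B and 829.6, 2029.6 and 295 CPM at station A, and SL9A3 was at 886, 979.9 and 276 CPM at station B and 1169.9, 699 and 132 CPM at station A, again with the lowest level in A3.

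Leaving out A3 moved the medians of these lists and changed the sign of several. The sodium-potassium ATPase list (4 tested) had a median of 0.085 and -0.12 without A3, the cation-chloride cotransporters (6) -0.05 and 0.092, the anion, bicarbonate and proton exchangers (17) 0.12 and 0.28, and the ammonia and urea transporters (5) -0.16 and -0.062. AT1A1, which holds most counts of the first list, went the other way, with a log2 fold change of 0.36 and 0.79 without A3. Without A3 the aquaporins (7) moved furthest, from 0.013 to -0.68, and the hormone receptors (11) went from 0.10 to 0.35. Other fish moved the medians as well. Without A1 the sodium-potassium ATPase median was -0.20 and that of the hormone receptors -0.021. Without A2 the median of the ammonia and urea transporters was -0.32. The chloride channels (13) kept a positive median, at 0.30, and at 0.35, 0.29 and 0.19 without A1, A2 and A3. In this list 9 members had a positive and 4 a negative log2 fold change, beside 48.8% negative among all genes. By fish, its median log2 ratio was -0.091, 0.055 and -0.109 in B1, B2 and B3 and 0.131, 0.236 and 0.099 in A1, A2 and A3. The list was not tested as a whole. The 14 tested subunits of the vacuolar proton ATPase had a median log2 fold change that rounds to 0. The osmolyte genes, among them SC6A6, a taurine transporter, and NFAT5, a transcription factor of the osmotic response, had a median of -0.018 over 8 members and no member at an unadjusted p under 0.05.

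The single members of these lists with an unadjusted p under 0.05 were chosen after their values were seen. ANO7, an anoctamin of the chloride channel and scramblase family, was at 55.7, 50.1 and 46.3 CPM at station B and 83.1, 99.5 and 66.4 CPM at station A (log2 fold change 0.71 ± 0.17 (SE), adjusted p 0.781 by edgeR and 0.0745 by DESeq2). WNK1, a chloride-sensing kinase that acts on cation-chloride cotransporters, was at 137, 129.8 and 114 CPM at station B and 153, 167 and 167 CPM at station A (log2 fold change 0.35 ± 0.11 (SE)). AQP11, an intracellular aquaporin, was at 16.9, 15.9 and 13.6 CPM at station B and 9.62, 5.35 and 11.6 CPM at station A (log2 fold change -0.80 ± 0.31 (SE)). The fish of the stations did not overlap in any of these genes. CAH5B, a mitochondrial carbonic anhydrase, had a log2 fold change of -1.15 ± 0.36 (SE) and overlapping groups, and CLD7A, a claudin of tight junctions, was high in A1 and A3 only, at 0.393, 0.33 and 0.469 CPM at station B and 6.29, 0.238 and 7.37 CPM at station A, the pattern of the neuron list.

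Stress lists had medians near 0 or below it. The heat shock chaperones had a median of -0.064 over 18 genes with 0 at an unadjusted p under 0.05. The endoplasmic reticulum stress list had a median of -0.37 over 15 genes, -0.52 without A3 and -0.22 without A1. In it 2 members were lower at an unadjusted p under 0.05, beside 2.54% of all genes. These were ENPL, the chaperone endoplasmin (log2 fold change -2.01 ± 0.61 (SE), overlapping), and SDF2L, a component of a chaperone complex, at 90.6, 122 and 82.9 CPM at station B and 60.4, 77.3 and 65.1 CPM at station A. Among 47 antioxidant and metal defence genes, FRIM, an iron-storing ferritin, was lower in every fish of station A, at 50.7, 47.9 and 68.6 CPM at station B and 37.1, 22.4 and 18.6 CPM at station A (log2 fold change -1.10 ± 0.29 (SE), DESeq2 adjusted p 0.0778). GSTT1, a glutathione transferase, was lower (log2 fold change -0.59 ± 0.23 (SE)) and S39A9, a zinc transporter, higher (log2 fold change 0.64 ± 0.25 (SE)).

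Further stress lists gave the following. In the immediate early list (24 tested, median -0.16) KLF2, a transcription factor of endothelium and quiescent lymphocytes, was at 449, 352 and 293 CPM at station B and 239.6, 166 and 221 CPM at station A. GA45A, a growth arrest and DNA damage gene, was also lower (log2 fold change -0.59 ± 0.24 (SE)). In the circadian list (11 tested) the repressors NR1D1 and CRY1 were higher, with NR1D1 at 24.9, 37.1 and 47.5 CPM at station B and 63.4, 79.9 and 55.8 CPM at station A and log2 fold changes of 0.86 ± 0.26 (SE) and 0.35 ± 0.12 (SE). Hypoxia genes had a median of 0.011 over 16 members and 0 at an unadjusted p under 0.05, and the cytochrome P450 and xenobiotic list -0.061 over 42, with ST1D1, a sulfotransferase, higher and MRP5, an efflux pump, lower.

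Medians of metabolism and protein turnover lists were negative, and some rested on 1 fish. Medians were -0.18 over 69 respiratory chain genes, -0.12 over 83 cytosolic ribosomal proteins, -0.22 over 29 proteasome subunits and -0.39 over 16 genes of sterol and fatty acid synthesis, beside 0.0072 for all genes. Leaving out 1 fish at a time, they ranged from -0.27 to -0.092 (nearest 0 without A3), from -0.20 to 0.023 (above 0 without B3, and -0.034 without A1), from -0.31 to -0.16 and from -0.54 to -0.21 (nearest 0 without B2). The summed level of the respiratory chain genes was 138246, 108743 and 97063 CPM in B1, B2 and B3 and 116839, 91529 and 157698 CPM in A1, A2 and A3, with a higher mean at station A. Each of the first 3 lists held 1 member lower and 0 higher at an unadjusted p under 0.05 (COX41, RL7L and PSA3), and the sterol list held 0. Of all genes 2.54% were lower and 3.49% higher at this limit. The sterol list varied between fish of the same station, with a median log2 ratio of -0.71 in A1, -0.20 in A2 and -0.069 in A3, and of -0.44 in B3. In glycolysis G6PI, glucose-6-phosphate isomerase, was higher at 197, 328 and 296 CPM at station B and 390.2, 442 and 395 CPM at station A, with a list median of -0.028 over 18 genes. Genes of cell division and DNA replication had a median of -0.013 over 42 and 0 at an unadjusted p under 0.05.

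Immune lists other than lymphocytes were mixed. In antigen presentation (20 tested, median -0.06), 1A02 and HA12, both matches to class I major histocompatibility chains, were lower. 1A02 was at 219, 259 and 292 CPM at station B and 73.3, 179.7 and 105 CPM at station A, without overlap (log2 fold change -1.11 ± 0.33 (SE)), and HA12 had a log2 fold change of -1.25 ± 0.50 (SE). Class I genes are polymorphic and have near copies, so reads of different alleles may be split among matches, and these values are uncertain. All 7 GIMAP GTPases, which act in lymphocyte survival, had negative log2 fold changes, from -0.77 to -0.19, beside 48.8% of all genes. GIMA9 was at 91.5, 85.8 and 85.1 CPM at station B and 64, 58.7 and 31.3 CPM at station A. TRI27, a ubiquitin ligase of the TRIM family, was lower in every fish of station A, at 389, 381 and 327 CPM at station B and 194, 269 and 241 CPM at station A (log2 fold change -0.64 ± 0.16 (SE), DESeq2 adjusted p 0.0583). The interferon response (15 tested) had a median of -0.03, with SAMH1, a nucleotide hydrolase that restricts viruses, at 1590.3, 1970.2 and 2369 CPM at station B and 2068, 4188 and 4610.0 CPM at station A. Complement, Toll-like receptors, NOD-like receptors and cytokines held 0 members at an unadjusted p under 0.05, over 11, 7, 14 and 18 tested genes.

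**Figure D4:**
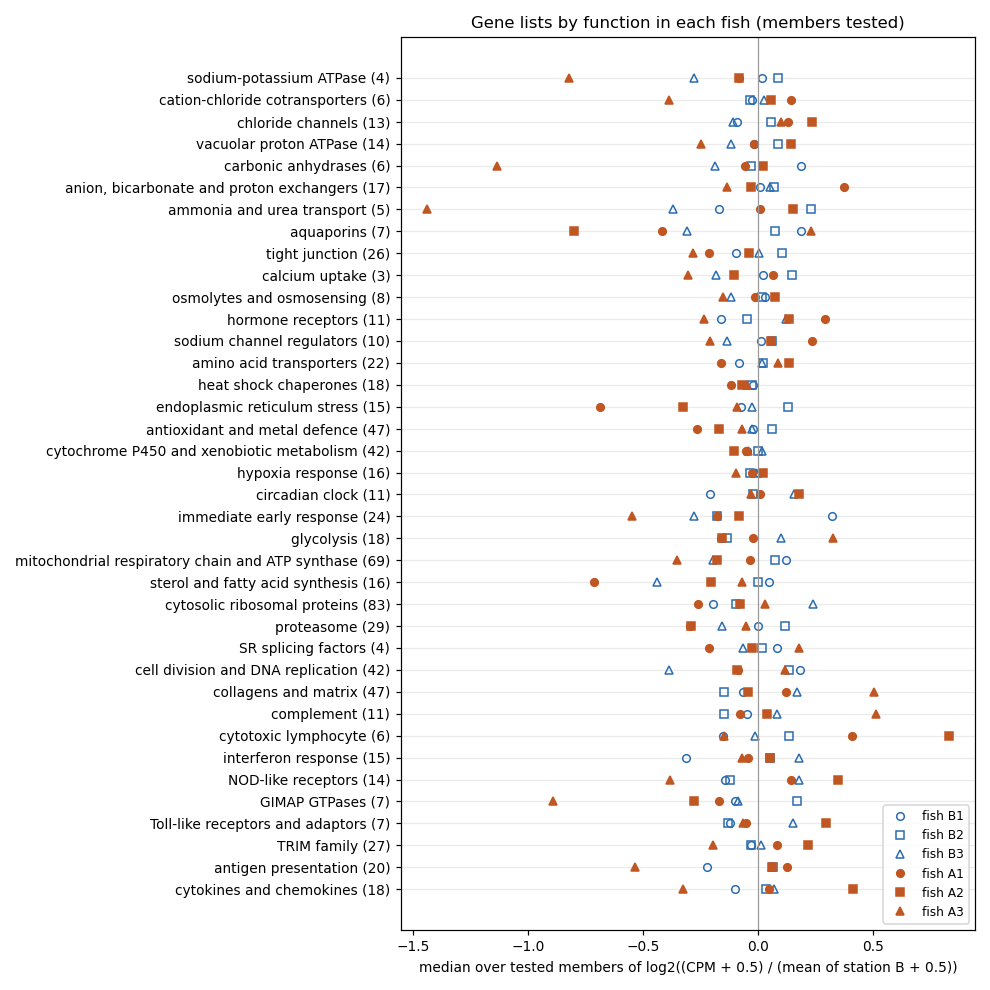
Median over the tested members of each gene list of log2((CPM + 0.5) / (mean of station B + 0.5)), 1 point for each fish (open for B1 to B3, filled for A1 to A3), with the number of members in brackets. A3 lies lowest in the sodium-potassium ATPase, carbonic anhydrase and ammonia lists, and most lists overlap between the stations.

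The 15 genes that the study singled out between these stations as candidates for osmoregulation were taken by its authors from those they called different in these same fish. Its methods describe no sum over the transcripts of a gene, so its log2 fold changes and the sums here are unlike measures. By qPCR, which is not among the data used here, the study reported positive differences for genes including PTPN3, NEDD4, AQP1 and ANO10, as in its sequencing. The legend of its qPCR figure gives PTPN3 and NEDD4 for station C against B and for station A against C. It names no comparison for AQP1 and ANO10. Summed per gene, the groups overlapped in all 15, and the smallest adjusted p was 0.781 by edgeR and 0.222 by DESeq2. In 14 of them the log2 fold change lay between -0.16 and 0.39. NEDD4L, a ubiquitin ligase that removes epithelial sodium channels, was at 169, 163 and 179 CPM at station B and 201, 190.3 and 156 CPM at station A (log2 fold change 0.098 ± 0.13 (SE)). Its main assembled gene held 55.7% of these counts, and the sum also took in a transcript of the assembled gene of NEDD4. The main assembled gene alone was at 91.8, 77.6 and 96.1 CPM at station B and 111, 111 and 102 CPM at station A. These totals did not overlap (log2 ratio 0.284). The sum of ANO10 joined 2 assembled genes, and the main one held 64.4% of its counts. That one was at 66.1, 176 and 89.5 CPM at station B and 146, 220 and 186 CPM at station A, with overlap (log2 ratio 0.73). PTPN3, a tyrosine phosphatase, was at 92.7, 90.6 and 106 CPM at station B and 104, 102 and 102 CPM at station A (log2 fold change 0.089 ± 0.11 (SE)). AQP1, a water channel, was at 33.2, 31.5 and 25.1 CPM at station B and 39.7, 22.9 and 35.2 CPM at station A (log2 fold change 0.12 ± 0.24 (SE)). The summed totals of NEDD4L, PTPN3 and AQP1 were thus close between the stations, with standard errors larger than the difference. ABCE1, a ribosome recycling factor, came nearest to separate groups among the 14, with 93, 79.4 and 81.6 CPM at station B and 92.4, 102 and 109 CPM at station A (log2 fold change 0.25 ± 0.12 (SE)). The study listed ABCE1, SCARB2, PIKFYVE, VPS35, ATAD2 and VPS26C as lower at station A. As sums they had log2 fold changes of 0.25, 0.28, 0.10, 0.088, 0.027 and -0.10.

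The exception was PRF1, perforin, the pore protein of cytotoxic lymphocytes. It was at 197, 266 and 287 CPM at station B and 909, 940.5 and 201 CPM at station A. A1 and A2 were more than 3-fold above every fish of station B and A3 was at their level (log2 fold change 1.45 ± 0.55 (SE), adjusted p 0.781 by edgeR and 0.222 by DESeq2). Without A3 the log2 fold change was 1.89, with an adjusted p of 0.257 by edgeR and 1.93e-16 by DESeq2. The list of 6 cytotoxic lymphocyte genes had a median of 0.43, and by fish it was highest in A2.

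**Figure D5:**
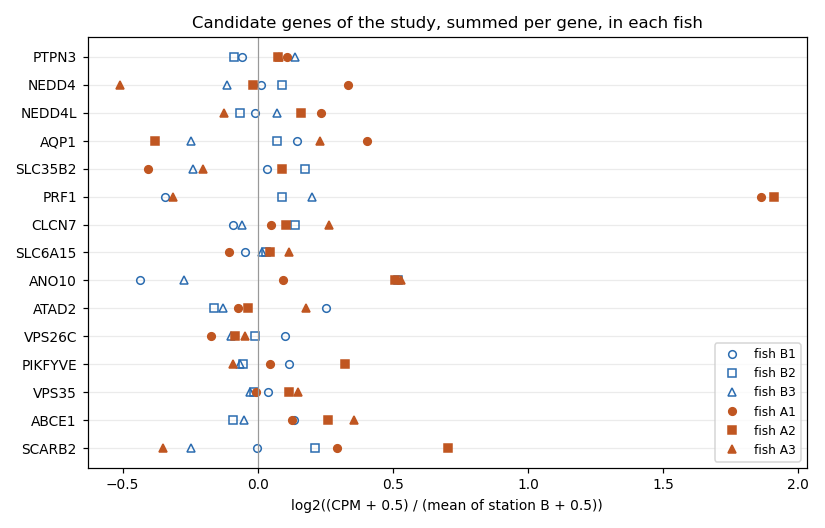
Level of the 15 candidate genes, summed over the transcripts of each gene, as log2((CPM + 0.5) / (mean of station B + 0.5)), 1 point for each fish (open for B1 to B3, filled for A1 to A3). The stations overlap in every gene, and PRF1 in A1 and A2 is the only pair of points beyond 1 on this scale.

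Single transcripts of these genes separated the stations in both directions. The 15 genes had 131 transcripts with at least 1 CPM in a fish, and the groups did not overlap in 24 with A above B and in 13 with A below B, while 94 overlapped. Over all 36817 transcripts with an entry name and at least 1 CPM in a fish, 4.86% had A above B and 4.73% A below B (9.59% in all). The candidates were chosen on differences between these fish, so their count is a description and supports nothing. In NEDD4L, 2 transcripts found only at station A summed to 17.1, 16.9 and 7.18 CPM in A1, A2 and A3, and 2 found only at station B to 9.03, 12 and 12 CPM in B1, B2 and B3. In VPS35, a subunit of the retromer, 1 transcript was found only at station A, at 10.7, 6.27 and 6.67 CPM, and 1 only at station B, at 14, 8.53 and 8.53 CPM. In SCARB2, a lysosomal membrane protein, 1 transcript found only at station B was at 50.8, 53.5 and 33.3 CPM, while the gene as a whole was at 143, 166 and 120.4 CPM at station B and 175, 234 and 112 CPM at station A. Here found only means at most 3 counts in each fish of the other station. The counts were divided among similar transcripts by Salmon, and the part of this division in these values was not tested.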

How the data were processed

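Gill RNA of each fish was sequenced as paired reads, and the authors trimmed the reads with Trimmomatic, assembled those of all 9 fish de novo with Trinity 2.9.1, removed transcripts with low expression, annotated the rest with Trinotate 3.2.2 and estimated counts with Salmon. The authors deposited estimated counts per transcript and fish, not normalized, and all columns were matched to fish by the label that names them. Station C was used only in the fit of all 9 fish. The genome build is not given in the sources used here, since the assembly used none.

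Estimated counts were added per first Swiss-Prot entry name and rounded to whole numbers. The 6 fish were fitted with edgeR 4.0.16 in R 4.3.3 (filterByExpr, TMM, glmQLFit with robust estimation, glmQLFTest), with Benjamini-Hochberg adjustment over 9052 genes. DESeq2 1.42.0, the tool of the authors, was run on the same genes as an alternative and gave no adjusted p for 198 of them. Standard errors were derived from the test, as the size of the log2 fold change over the square root of F. Figures were drawn with matplotlib 3.10.9. P-values measure the spread between these fish only. An exact permutation test of 3 fish against 3 cannot give a two-sided p under 0.1, and none was used.

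Adding over an entry name joins paralogs that match the same protein (3250 names drew on 2 or more assembled genes) and can split a locus whose transcripts match different proteins. For each leading gene the total of the assembled gene with most of its counts was therefore computed as a log2 ratio with 0.5 CPM added. Ratios to the mean of station B also have 0.5 CPM added. Named genes were those called, otherwise the 15 in each direction with the smallest p and no overlap between stations, without viral, bacterial and transposon matches, then the 15 candidates and the members of each list with the highest levels. List members singled out by their p were chosen after their values were seen. The genes, the 51 lists and the tests were chosen with earlier results of these data known. No reference sequences were used here.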

Additional observations from a re-analysis of the deposited data

How the results depend on the processing

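Calls of the quasi-likelihood test numbered 0 in all settings that kept the 6 fish, namely without robust estimation, with DESeq2 size factors, with library totals alone, with other filters on low counts, without a limit on the fold change, with all 9 fish, per assembled gene, per transcript and with rows of 1 entry name, and between 0 and 2 when 1 fish was left out (2 without B2). DESeq2 called 36 genes on the same genes and 37 on genes above 1 CPM in 2 fish, and, when 1 fish was left out (added after its calls had been seen), 27 without B1, 108 without B2, 61 without B3, 34 without A1, 131 without A2 and 120 without A3. The labels do not say that replicate numbers pair the fish. Deviations of same-numbered fish correlated at 0.128, 0.0711 and 0.227. A2 correlated best with B1 (0.124), and the remaining pairs lay between -0.204 and -0.0345. Whether same-numbered fish share a factor was not tested. A fit with the replicate number as a replicate block also called 0 genes, with 521 at an unadjusted p under 0.05 against 546.

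No leading gene turned its direction, which in fits without 1 fish largely followed from their choice without overlap. Of the 654 values of the 30 leading genes under the alternatives, 127 passed the threshold, all by DESeq2, and the edgeR adjusted p lay between 0.153 and 1. Of the other named genes, 8 close to no difference changed sign, with the range of edgeR's log2 fold changes over fits without 1 fish as follows. NEDD4 lay between -0.243 and 0.169 (DESeq2 0.028 without B2 and 0.172 without A3). AQP1 lay between -0.045 and 0.328 (DESeq2 -0.045 without A1). SLC6A15 (S6A15) lay between -0.029 and 0.08 and was -0.009 with library totals alone (DESeq2 -0.008 without B1 and -0.026 without A3). It kept its sign but rose to 1.568 when only rows with 1 entry name were added (adjusted p 0.784 by edgeR), against 0.021 in the main fit. ATAD2 lay between -0.056 and 0.172 and was -0.0 with library totals alone (DESeq2 -0.044 without B2, -0.028 without B3 and -0.053 without A3). PIKFYVE (FYV1) lay between -0.019 and 0.191 (DESeq2 -0.021 without A2). AT1A1 lay between -0.156 and 0.789 (DESeq2 -0.159 without A1). SL9A3 lay between -0.78 and 0.388 (DESeq2 0.083 without B1, 0.208 without B2 and 0.393 without A3). PLCB2 lay between -0.897 and 0.335 and was -0.028 with library totals alone and -0.215 in the replicate block fit (DESeq2 -0.241 without B1 and -0.896 without A3). List medians moved by more than the SD between the fish of station A in 58 of 1276 values. Depth limited genes under about 0.1 CPM.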

Other observations

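The gene groups in this section were put together after the values of their members had been seen, so they are given as values without a test and support nothing. Gills carry taste buds and other chemosensory cells, and genes known from such cells were higher at station A. TRPM5, the cation channel at the end of the taste cascade, was at 133, 167 and 185 CPM at station B and 202, 294 and 199 CPM at station A. Its receptors TS1R1, TS1R2 and TS1R3, which pair to sense amino acids in fish, stood alike, with TS1R2 at 3.05, 3.81 and 3.25 CPM at station B and 7.93, 20.6 and 5.94 CPM at station A and TS1R3 at 9.79, 10.3 and 12.9 CPM at station B and 24.3, 34.5 and 13.7 CPM at station A. SEGN, secretagogin, a calcium sensor of neuroendocrine cells, was at 54.7, 54 and 47.5 CPM at station B and 116, 122 and 64.3 CPM at station A, and ACHA3, a nicotinic acetylcholine receptor subunit, was at 13.7, 15.5 and 13.1 CPM at station B and 35.3, 20.5 and 27.8 CPM at station A. Higher at station A without overlap were 8 of the 12 members tested, beside 497 of all 9052 genes. They were the 5 genes with levels given here, TS1R1, ACHA5 and KCJ11. Unlike the neuron list, A2 was high in most of them. Their log2 fold changes were 0.52 ± 0.21 (SE) for TRPM5, 1.77 ± 0.50 (SE) for TS1R2, 1.14 ± 0.34 (SE) for TS1R3, 0.95 ± 0.25 (SE) for SEGN and 0.98 ± 0.23 (SE) for ACHA3, and of these ACHA3 alone had a DESeq2 adjusted p of at most 0.05 (0.0376). PLCB2, a phospholipase of the same cascade, was at 20.1, 37.9 and 37.9 CPM at station B and 17.9, 16.4 and 62.3 CPM at station A, which does not follow them. P2RX3, also counted among the 12, was high in A1 and A3 only, as the neuron list was, with levels given below.

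Nerve and glial genes were high in A1 and A3 and not in A2. MAP1B, a microtubule protein of axons, was at 1.69, 1.43 and 2.22 CPM at station B and 21.6, 0.832 and 46.9 CPM at station A. S100B, a calcium-binding protein of glia, was at 0.302, 1.72 and 1.22 CPM at station B and 22.1, 0.654 and 28.6 CPM at station A. P2RX3, an ATP receptor of sensory neurons, was at 0, 0.146 and 0.625 CPM at station B and 12.4, 0.0297 and 11 CPM at station A. NFASC, neurofascin, which binds gliomedin at the nodes, was at 12.5, 16.2 and 22.2 CPM at station B and 50.8, 28.5 and 52 CPM at station A and, like GLDN, was also higher in A2. The 20 tested nerve and glial genes had a median log2 ratio of 2.51 in A1, -0.35 in A2 and 2.87 in A3. The neuron list was likewise high in A1 and A3, and its part in these values was not tested.

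Genes of mitochondrial ribosomes and of ribosome assembly mostly had small negative log2 fold changes. Of 37 mitochondrial ribosomal proteins tested, 33 had a negative value, beside 48.8% of all genes, and 16 were lower without overlap between the fish, beside 6.29% of all genes, with a median log2 fold change of -0.23, and -0.23 without A3. RM17 was at 30, 29.6 and 25.9 CPM at station B and 20.7, 21.8 and 19.8 CPM at station A and RM24 at 84.9, 83.3 and 72.5 CPM at station B and 66.4, 61.7 and 59 CPM at station A. Of 50 ribosome assembly factors, 43 had a negative value and 9 were lower without overlap, with a median of -0.17, -0.38 without A3 and -0.084 without A1. Their median log2 ratio was -0.48 in A1, -0.28 in A2 and 0.047 in A3. NOP58, a box C/D small nucleolar ribonucleoprotein, was at 212, 187 and 181 CPM at station B and 111, 129 and 203 CPM at station A, lower in A1 and A2 and within station B in A3.

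Beside IGM, fragments matched to immunoglobulin variable and light chains were mostly higher, with KV02 at 11.4, 29.8 and 10.9 CPM at station B and 116, 93.3 and 14.4 CPM at station A and IGL1 at 167, 327 and 221 CPM at station B and 529, 417 and 209 CPM at station A, and A3 at the level of station B in both. PLE3, the match to a pleurocidin, was at 211, 291 and 63.8 CPM at station B and 32.2, 65.4 and 22.5 CPM at station A and resembled MORO with overlapping groups. Lipoxygenases were led by 1 fish, A1. LX15B, an arachidonate lipoxygenase, was at 0.0906, 0.366 and 12.1 CPM at station B and 413, 38.1 and 15 CPM at station A.

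Transcripts whose first match was a protein of a ciliate or a flatworm had sums that varied by fish more than by station. Ciliate matches (169 transcripts) summed to 15.7, 84.6 and 27.5 CPM in B1, B2 and B3 and to 34.8, 137 and 32.1 CPM in A1, A2 and A3. Flatworm matches (73 transcripts) summed to 0.453, 2.75 and 101 CPM and 27.2, 3.12 and 68.9 CPM, high in B3, A1 and A3 and low in the other fish. A first match does not name the organism that a transcript came from.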
